A study of Mus musculus with 9 samples.

Results

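The Reg (regenerating) genes encode small secreted C-type lectin-like proteins. The part of the transcriptome described here is the 6 Reg genes that the table lists by symbol, Reg1, Reg2, Reg3a, Reg3b, Reg3d and Reg3g, out of 46078 genes in all, followed across all 9 libraries. RNA came from ground, snap-frozen whole pancreas of 8-week-old mice. There were 3 animals in each of 3 groups: wild-type littermates (WT), mice labelled Snd1-KI and mice labelled S6k2-RK. Snd1 carries a Tudor domain, a fold that reads methylated arginines, and S6k2 (gene Rps6kb2) is a ribosomal protein S6 kinase. From its title, the series concerns recognition of methylated S6K2 by the Tudor domain of SND1. The base changes of both alleles, and whether the mice were homozygous, are not given in the sources used here, and counts per gene cannot check them. The labels name no agent given to any group. Animals are named below by the number in their label. The labels do not say whether equal numbers in different groups mark related animals, and they were not treated as pairs.

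In the pancreas, Reg proteins are made mainly by acinar cells, the cells that secrete digestive enzymes. Reg1 (lithostathine, or pancreatic stone protein) is a normal component of pancreatic juice, and Reg3b is the mouse pancreatitis-associated protein, which is induced by acinar injury. Reg3b and Reg3g are also antibacterial lectins of the intestinal epithelium, where IL-22 acting through STAT3 induces them. Reg2 is a close relative of Reg1. Reg3d is the mouse relative of the hamster islet neogenesis-associated protein.

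The 6 genes lie together on mouse chromosome 6, at chr6:78370657-78468872 (GRCm38, GENCODE release 21), a span of 98.22 kb that holds no other protein-coding gene. Going from left to right, the order is Reg3b, Reg3d, Reg3a, Reg2, Reg1 and Reg3g. Reg3d and Reg3g are on the minus strand and the other 4 are on the plus strand. The nearest protein-coding gene is Ctnna2, 391 kb away on one side, and on the other side Gm20594 lies 1349 kb away. The messenger RNAs are related but distinct. Reg1 and Reg2 were identical at 81.5% of aligned bases, Reg3a and Reg3b at 75.9%, Reg3b and Reg3g at 74.7%, and the least alike pair, Reg2 and Reg3g, at 63.9%. None of the 15 pairs shared a stretch of 100 identical bases, against reads of 150 bp. The way the authors' counting treated reads that match several genes is not given in the sources used here.

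Reg2, Reg3a and Reg3b had the same 4 highest libraries and the widest ranges of the 6 genes over the 9 libraries, while Reg1 varied less. For these 4 genes the 250 bases before the RefSeq transcription start (GRCm38.p6) are printed. Each is given 5′ to 3′ on the gene's own plus strand. They lie at chr6:78404905-78405154 for Reg2, chr6:78380459-78380708 for Reg3a, chr6:78370635-78370884 for Reg3b and chr6:78425733-78425982 for Reg1. Capitals mark TATAAA (the TATA box), CACCTG (an E-box of the kind bound by the acinar factor PTF1), TTCCCA (the core of the TC-box bound by PTF1's Rbpj subunits) and TTCNNNGAA (the STAT element), each searched on both strands.
Reg2: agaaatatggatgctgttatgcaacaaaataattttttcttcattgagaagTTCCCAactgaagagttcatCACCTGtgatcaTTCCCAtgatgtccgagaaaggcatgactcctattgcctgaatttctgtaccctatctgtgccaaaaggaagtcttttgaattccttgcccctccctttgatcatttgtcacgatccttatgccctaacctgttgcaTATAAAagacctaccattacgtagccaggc
Reg3a: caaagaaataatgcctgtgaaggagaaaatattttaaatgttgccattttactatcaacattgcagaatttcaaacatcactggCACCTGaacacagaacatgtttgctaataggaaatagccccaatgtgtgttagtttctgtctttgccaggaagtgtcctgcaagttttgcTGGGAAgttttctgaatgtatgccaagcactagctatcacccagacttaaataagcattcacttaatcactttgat
Reg3b: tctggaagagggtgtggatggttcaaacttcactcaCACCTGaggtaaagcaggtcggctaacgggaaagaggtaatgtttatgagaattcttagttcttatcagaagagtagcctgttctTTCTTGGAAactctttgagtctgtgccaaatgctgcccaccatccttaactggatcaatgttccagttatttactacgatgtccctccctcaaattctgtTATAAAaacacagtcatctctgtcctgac
Reg1: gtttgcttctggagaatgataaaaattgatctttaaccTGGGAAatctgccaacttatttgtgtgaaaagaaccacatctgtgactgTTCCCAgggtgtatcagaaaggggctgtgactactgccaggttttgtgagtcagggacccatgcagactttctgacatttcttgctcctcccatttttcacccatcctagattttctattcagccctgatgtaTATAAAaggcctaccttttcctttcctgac
Of the 6 Reg promoters, 4 held TATAAA (Reg1, Reg2, Reg3b and Reg3g), against 12.4% of 32851 mouse promoters of that length. In Reg1 and Reg2 it began 30 bases before the start, in Reg3b 29 and in Reg3g 27, with another copy on the other strand of Reg3g 161 bases before the start. CACCTG was found in 4 (Reg2, Reg3a, Reg3b and Reg3d), against 17.2% of promoters. TTCCCA was found in 5, all but Reg3b, against 21.6%. TTCNNNGAA was found in Reg3b and Reg3d, against 7.02%, and in Reg3d it overlapped a TTCCCA. Of the motifs searched, only CACCTG was found in Reg2, Reg3a and Reg3b together. Reg3d held it too, and Reg1 and Reg3g did not. A match of letters is a description of the window and not a site of binding.

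The levels of the Reg genes differed widely. Ranks were taken on the mean over the 9 libraries of normalized counts per kb of transcript. Reg1 ranked 17th among 21500 protein-coding genes, Reg2 45th, Reg3d 101st, Reg3b 112th, Reg3a 374th and Reg3g 1722nd. Reg1 made up 94.03% of all Reg counts on average, from 81.8% in Snd1-KI animal 1 to 97.9% in S6k2-RK animal 3. The relative Reg4 had 0 reads in all 9 libraries, where the floor of 3 reads applies to each. All 6 Reg genes passed the filter of a mean of 10 normalized counts.

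Reg1 had the smallest spread of the 6 within WT and within Snd1-KI, but not within S6k2-RK. Its normalized counts were 176854, 190187 and 98359 in WT animals 1 to 3, 154369, 173036 and 108422 in the Snd1-KI animals, and 200741, 133179 and 239242 in the S6k2-RK animals. The lowest values were in WT animal 3 and Snd1-KI animal 3, the highest in S6k2-RK animal 3, and the 3 groups overlapped. Group means were 155130 ± 49618 in WT, 145280 ± 33253 in Snd1-KI and 191050 ± 53691 in S6k2-RK (SD, n = 3 each, as for every mean below). Bulk tissue cannot tell fewer cells of a type from less RNA per cell.

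Reg2, the second most abundant by its mean over the 9 libraries, behaved otherwise. WT animals 1 to 3 had 8168, 8827 and 646 normalized counts of Reg2, the Snd1-KI animals 22312, 9472 and 556, and the S6k2-RK animals 1033, 868 and 1084. Thus 4 libraries lay at 8168 or above and 5 at 1084 or below, with none between. The low libraries were all 3 S6k2-RK animals, WT animal 3 and Snd1-KI animal 3. In each of these 5 libraries Reg3d was higher than Reg2. The Reg2 means were 5881 ± 4545 in WT, 10780 ± 10937 in Snd1-KI and 995 ± 113 in S6k2-RK. In Snd1-KI the SD thus exceeded the mean, while in S6k2-RK it was small.

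Reg3b, the pancreatitis-associated protein, and Reg3a showed the same division of libraries. Reg3b had 2838, 3139 and 380 normalized counts in WT, 6547, 2680 and 462 in Snd1-KI, and 889, 1052 and 964 in S6k2-RK. Reg3a had 536, 646 and 51.1 in WT, 1791, 555 and 73.8 in Snd1-KI, and 161, 72.5 and 130 in S6k2-RK. For Reg2, Reg3a and Reg3b the same 4 libraries were the highest, namely WT animals 1 and 2 and Snd1-KI animals 1 and 2. Means of Reg3b were 2119 ± 1514, 3230 ± 3080 and 968 ± 81.8, and those of Reg3a 411 ± 316, 807 ± 886 and 121 ± 44.9.

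Reg3g was the least abundant on average. It had 87.3, 87.4 and 28.5 normalized counts in WT, 266, 143 and 40.6 in Snd1-KI, and 46.0, 110 and 35.9 in S6k2-RK. It shared 3 of its 4 highest libraries with Reg2, the fourth being S6k2-RK animal 2. Reg3d had 2507, 2805 and 1224 normalized counts in WT, 3323, 2708 and 1876 in Snd1-KI, and 2480, 2025 and 2985 in S6k2-RK. Reg3d varied over a range close to that of Reg1, and its lowest libraries were again WT animal 3 and Snd1-KI animal 3. Means were 67.7 ± 33.9, 150 ± 113 and 64.0 ± 40.2 for Reg3g, and 2179 ± 840, 2635 ± 726 and 2497 ± 480 for Reg3d.

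**Figure D1:**
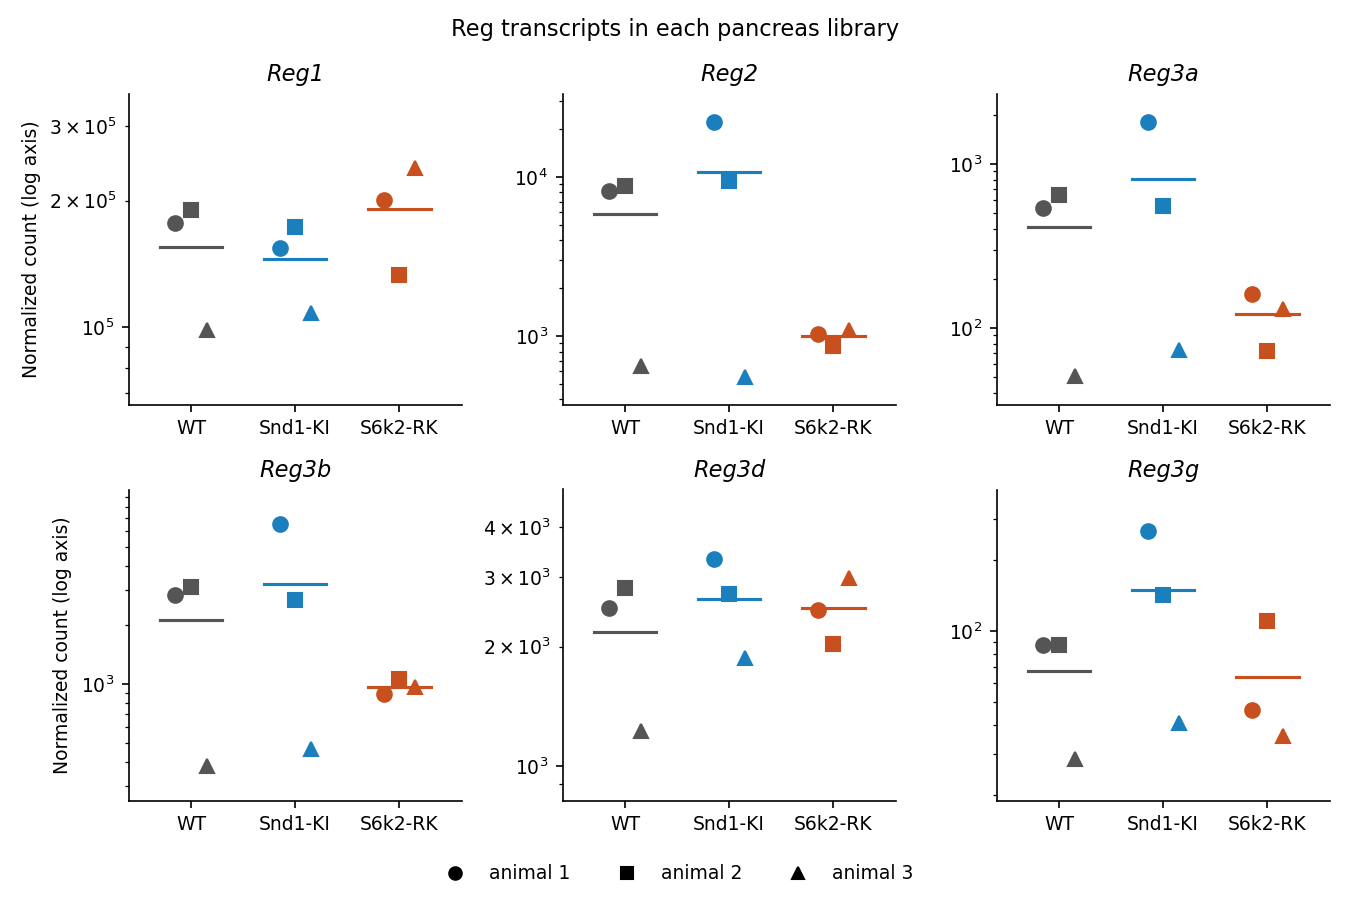
Normalized counts of the 6 Reg genes (log axis, 1 panel per gene) in the 9 pancreas libraries by group; symbols are animals 1 to 3 and horizontal lines are group means. For Reg2, Reg3a and Reg3b, animals 1 and 2 of WT and Snd1-KI sit above all other libraries, while Reg1 and Reg3d span less than 3-fold.

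The spread between animals of a group was thus the main feature of these genes. In WT the highest animal exceeded the lowest 13.7-fold for Reg2, 12.6-fold for Reg3a, 8.27-fold for Reg3b, 3.06-fold for Reg3g, 2.29-fold for Reg3d and 1.93-fold for Reg1. In Snd1-KI the order of the 6 genes was the same, with ratios of 40.1, 24.3, 14.2, 6.54, 1.77 and 1.60. In S6k2-RK the order differed: the ratio was 3.07 for Reg3g, 2.22 for Reg3a, 1.80 for Reg1, 1.47 for Reg3d, 1.25 for Reg2 and 1.18 for Reg3b. Over 30 digestive enzyme genes the median of the same ratio, with 1 added to each value, was 1.17 in WT, 1.09 in Snd1-KI and 1.32 in S6k2-RK. Some enzymes spread more, up to 10.3-fold for Prss1 in WT, 3.76-fold for Amy2a5 in Snd1-KI and 3.23-fold for Prss3 in S6k2-RK. Over all 11953 genes tested the median was 1.32, 1.27 and 1.36. Both medians in WT and Snd1-KI lie far below those of Reg2, Reg3a and Reg3b; in S6k2-RK, Reg2 and Reg3b lie below both.

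**Figure D2:**
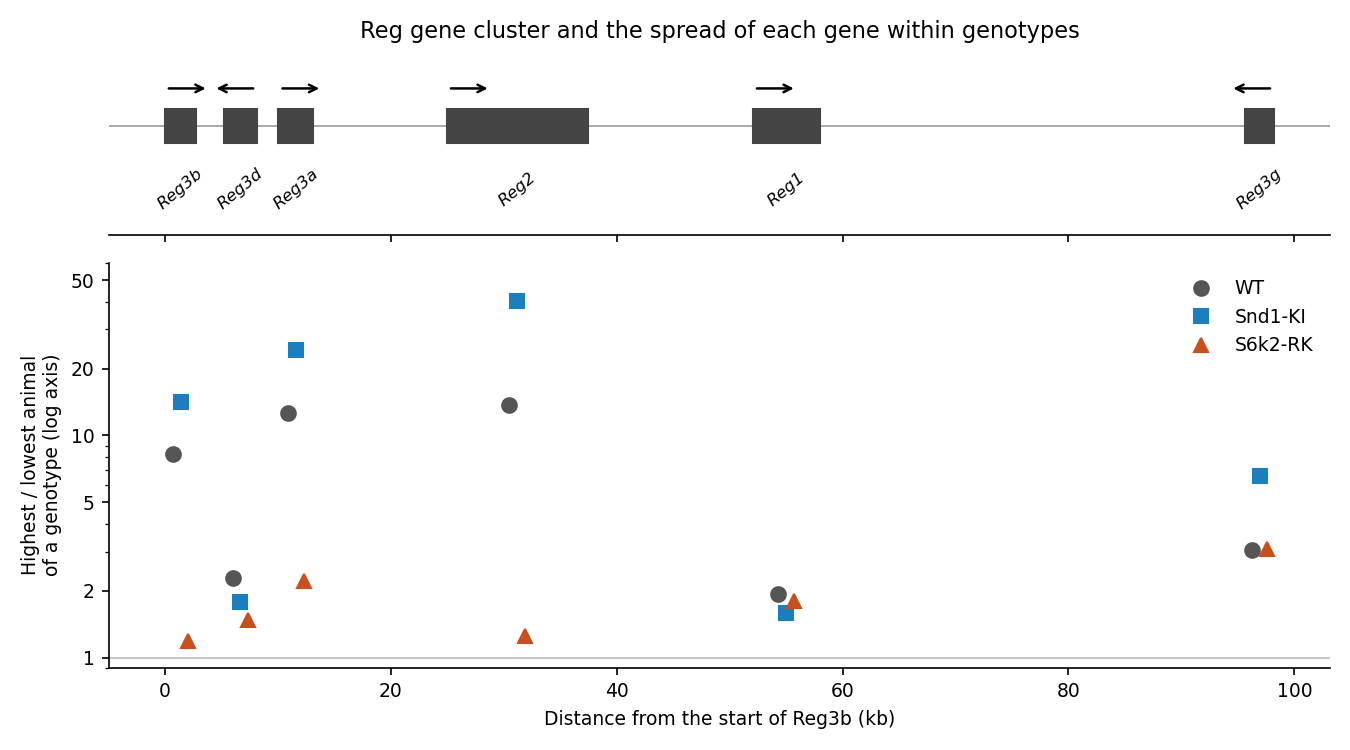
Top, the 6 Reg genes drawn to scale by distance from the start of Reg3b (kb), with arrows for the direction of transcription; bottom, the highest animal of a group divided by the lowest (log axis) for each gene. Reg2 reaches 40.1 in Snd1-KI and 13.7 in WT, while Reg1, its neighbour in the cluster, stays below 2 in all 3 groups.

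As an SD of log2(normalized count + 1) within groups, Reg2 reached 2.03, Reg3a 1.81, Reg3b 1.50, Reg3g 1.06, Reg3d 0.47 and Reg1 0.44. Among the 11953 genes tested, Reg2 ranked 3rd, Reg3a 5th, Reg3b 10th and Reg3g 58th for this spread, while Reg3d ranked 1607th and Reg1 1904th. The median gene had 0.24 and the median enzyme gene 0.15. The others among the 10 most variable genes were 3 amylase copies, 3 immunoglobulin gene segments and Gm28437. With a pseudocount of 0.5 the ranks of Reg2, Reg3a and Reg3b became 5, 11 and 24, and with a pseudocount of 10 they became 3, 4 and 5. Within S6k2-RK alone, Reg2 had an SD of 0.17 and ranked 7967th and Reg3b had 0.12 and ranked 9563rd. Whether the spread differs between groups was not tested.

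Animal 3 was lowest for all 6 Reg genes in WT and for all 6 in Snd1-KI, and for 1 of 6 in S6k2-RK. On the log2 scale, WT animal 3 deviated from its group mean by -2.48 for Reg2, -2.33 for Reg3a, -1.98 for Reg3b, -1.05 for Reg3g, -0.74 for Reg3d and -0.60 for Reg1. Snd1-KI animal 3 had deviations of -3.14, -2.49, -2.12, -1.49, -0.45 and -0.39 in the same order. In S6k2-RK the deepest deviations were -0.66 for Reg3a and -0.65 for Reg3g, in different animals. Every member moved the same way in animals 3 of WT and Snd1-KI, but Reg2 moved by far more than Reg1 beside it.

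**Figure D3:**
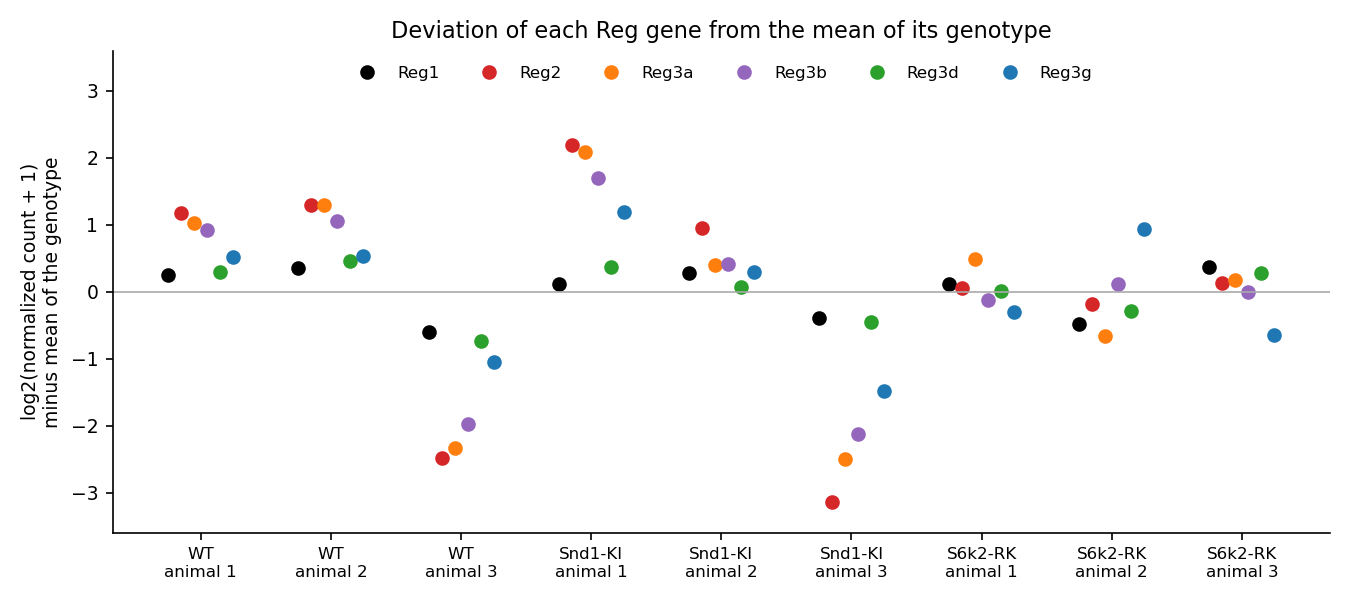
Deviation of each Reg gene from its group mean, on the scale of log2(normalized count + 1), in each animal; each colour is a gene. All 6 genes lie below 0 in animal 3 of WT and of Snd1-KI, down to -3.14 for Reg2, whereas in S6k2-RK no Reg gene lies below -0.66.

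These low libraries were also the shallowest of their groups. WT animal 3 had 13461427 reads assigned to genes against 14635278 and 14500270 in the other WT animals, and Snd1-KI animal 3 had 14814682 against 17892032 and 21034501. In S6k2-RK the shallowest library was animal 2, with 14068683 reads against 16756099 and 16665917, and it was lowest for 4 of the 6 Reg genes (Reg1, Reg2, Reg3a and Reg3d). In reads, WT animal 3 held 657 of Reg2 where WT animal 1 held 9362, and Snd1-KI animal 3 held 520 where Snd1-KI animal 1 held 25770. The part of depth in the result was not tested beyond scaling every library to the same total, under which Reg2, Reg3a and Reg3b kept ranks 3, 5 and 10 for spread. All 9 animals had at most 0.873 normalized counts of Xist and between 190.6 and 264.6 of the Y-linked Ddx3y, the pattern of male mice in each. Of 16 intestinal markers, 7 (Fabp2, Alpi, Sis, Cdx1, Cdx2, Lct and Defa24) had 0 reads in all 9 libraries, and the summed level of the list was 48.2 to 97.7 normalized counts in WT, 51.9 to 63.5 in Snd1-KI and 47.0 to 54.4 in S6k2-RK. Of its 3 tested members limma called 1 higher in each mutant, where 2.4% (Snd1-KI) and 5.2% (S6k2-RK) of all genes tested were. This was the keratin Krt20 (named after its values were seen), at 3.00 ± 2.24, 13.1 ± 0.761 and 16.6 ± 2.86 normalized counts (limma adjusted p = 0.0330 and 0.00841). Within WT the sum of the intestinal list was 97.7, 71.2 and 48.2 in animals 1 to 3, and within Snd1-KI 51.9, 63.5 and 62.0. All 14 members of the islet list were tested, and limma, edgeR and DESeq2 called 0 of them against WT in either mutant. At an unadjusted limma p below 0.05 there were 5 in Snd1-KI, all lower, and 0 in S6k2-RK. The 5, named after their values were seen, were Ins1, Ins2, Gcg, Sst and Iapp. Of the 11953 genes tested, 2402 and 3224 were below that p. The islet list summed to 49742 to 57802 normalized counts in WT, 28947 to 52074 in Snd1-KI and 34001 to 65285 in S6k2-RK.

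Lymphocyte markers were lower in the mutants than in WT: limma called 12 of 13 tested T-cell markers lower in Snd1-KI and 13 of 13 in S6k2-RK, and 10 and 12 of 12 tested B-cell markers, where 3.2% and 6.83% of all genes tested were called lower. The 14 T-cell markers summed to 411 to 1166 normalized counts in WT, 37.9 to 129 in Snd1-KI and 47.0 to 51.0 in S6k2-RK. By animal the sum was 411, 1166 and 882 in WT, 129, 37.9 and 46.0 in Snd1-KI, and 51.0, 47.0 and 48.2 in S6k2-RK. The animal with the highest Reg2 had the highest sum in WT and Snd1-KI but not in S6k2-RK, and the animal with the lowest Reg2 had the lowest sum in S6k2-RK but not in WT or Snd1-KI. The 13 B-cell markers summed to 1405 to 3035, 670 to 926 and 202 to 1212. None of the 14 T-cell and 13 B-cell markers was at 0 in all libraries. Of 8 tested adipocyte markers, 7 were called lower in S6k2-RK and 0 in Snd1-KI (1 at an unadjusted p below 0.05). Of 8 tested myeloid markers, 1 was called lower in Snd1-KI and 4 in S6k2-RK. Of 11 tested duct markers 2 were called higher in each mutant, where 2.4% (Snd1-KI) and 5.2% (S6k2-RK) of all genes tested were. The part of these cells in the Reg levels was not tested.

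As a share of all counts, the 6 Reg genes together held 1.28% ± 0.449 in WT, 1.03% ± 0.281 in Snd1-KI and 1.05% ± 0.277 in S6k2-RK. The exact two-sided permutation test gave p = 0.5 for Snd1-KI against WT, p = 0.5 for S6k2-RK against WT and p = 0.7 between the mutants, where 3 against 3 animals cannot go below 0.1. Reg1 set this share. Without Reg1 the other 5 held 0.0823% ± 0.0562 in WT, 0.112% ± 0.102 in Snd1-KI and 0.0249% ± 0.00284 in S6k2-RK, with exact permutation p-values of 0.8, 0.4 and 0.4 in the same order of comparisons. By animal, the share without Reg1 was 0.111, 0.119 and 0.0176% in WT, 0.221, 0.0955 and 0.0190% in Snd1-KI, and 0.0275, 0.0219 and 0.0252% in S6k2-RK. The S6k2-RK values thus lay between the lowest and the higher animals of the other groups. Over the same libraries the 30 digestive enzymes took 71.2% ± 0.854, 74.9% ± 0.469 and 76.4% ± 0.892 of all counts (exact permutation p = 0.1 in each comparison, the smallest possible), so that the denominator itself moved.

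**Figure D4:**
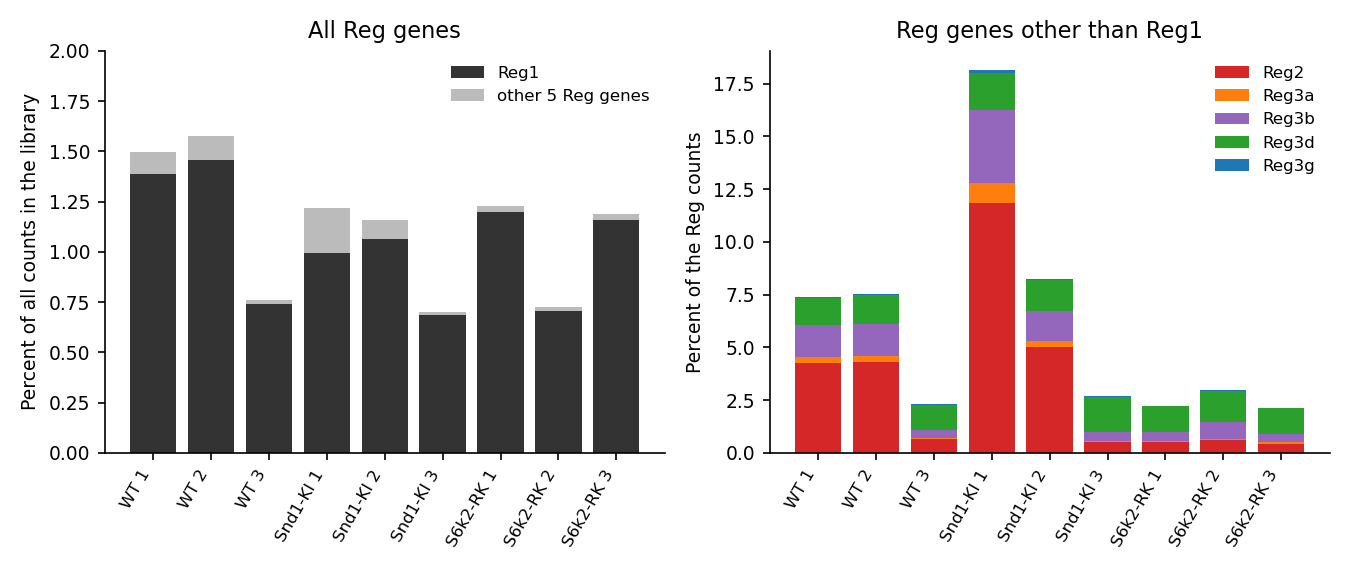
Left, percent of all counts in each library held by Reg1 and by the other 5 Reg genes; right, percent of the Reg counts held by each Reg gene other than Reg1. Snd1-KI animal 1 stands highest on the right, with 11.8% of its Reg counts from Reg2, against 0.444 to 0.642% in WT animal 3, Snd1-KI animal 3 and the S6k2-RK animals.

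The comparisons of genotypes asked whether each allele changed these transcripts. limma called 5.61% of all genes tested between Snd1-KI and WT (2.4% higher and 3.2% lower). Of the 6 Reg genes it called 0 at an adjusted p below 0.05, and edgeR and DESeq2 called 0 as well. At an unadjusted p below 0.05 limma had 0 of the 6, against 2402 of the 11953 genes tested. The groups overlapped for all 6 Reg genes, where 27.1% of genes had groups that did not overlap. The limma log2 fold change of Reg2 was 0.45 ± 0.96 (SE; 95% interval -1.57 to 2.46; adjusted p = 0.846). For Reg3g it was 0.93 ± 0.53 (interval -0.17 to 2.04; adjusted p = 0.339 in limma), the smallest p of the 6. The others were 0.68 ± 0.86 for Reg3a, 0.42 ± 0.71 for Reg3b, 0.32 ± 0.24 for Reg3d and -0.06 ± 0.25 for Reg1, with limma adjusted p from 0.482 to 0.926. As ratios to WT, the interval of Reg2 ran from 0.338 to 5.48 and that of Reg3a from 0.461 to 5.58. The fold changes of Reg2, Reg3a and Reg3b turned negative without WT animal 3 (Reg2 -0.79) or without Snd1-KI animal 1 (Reg2 -0.65), that of Reg2 also without Snd1-KI animal 2 (-0.03). Without Snd1-KI animal 3 the value of Reg2 was 2.01 and 5 of the 6 Reg genes had an unadjusted p below 0.05, against 0 with all libraries, though limma still called 0.

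Between S6k2-RK and WT, limma called 12% of all genes tested (5.2% higher and 6.83% lower) and 0 of the 6 Reg genes. At an unadjusted p below 0.05 it had 0 of the 6 (3 without WT animal 3), against 3224 of the 11953 genes tested in the main fit. The groups again overlapped for all 6, where 28.3% of genes did not. Reg2 had a log2 fold change of -1.86 ± 0.96 (95% interval -3.87 to 0.15; limma adjusted p = 0.223), Reg3a -1.18 ± 0.86 (interval -2.98 to 0.62; adjusted p = 0.405) and Reg3b -0.64 ± 0.71 (adjusted p = 0.611). Reg3g was at -0.09 ± 0.53, Reg1 at 0.32 ± 0.25 and Reg3d at 0.27 ± 0.24. Reg1 and Reg3d turned to -0.20 and -0.25 when every library was set to the same total. In that setting the median log2 fold change of all genes tested was -0.51. For Reg2 the call depended on the setting. edgeR on recovered reads called it lower in S6k2-RK, at -2.58 with an adjusted p of 0.0404, and limma did so without WT animal 3, at -3.10 with an adjusted p of 0.0332. DESeq2 did not call it (adjusted p = 0.160), nor did edgeR without S6k2-RK animal 1 (adjusted p = 0.0831). limma uses 1 estimate of spread for all groups, whereas the Reg2 SD on the log2 scale was 2.15 in WT, 2.79 in Snd1-KI and 0.17 in S6k2-RK.

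Between the mutants, limma called 0.117% of genes tested (0.0586% in each direction) and 0 of the 6 Reg genes, and edgeR and DESeq2 also called 0. At an unadjusted p below 0.05 there were 2 of the 6, both lower in S6k2-RK, against 1207 of the 11953 genes tested. The number of Reg genes was 0 without Snd1-KI animal 1 or animal 2 and 4 without Snd1-KI animal 3. Over these fits the Reg2 fold change went from -1.21 (without animal 1) to -3.87 (without animal 3). It was 3 without WT animal 3 and 1 without S6k2-RK animal 1 or animal 3. Reg2 had a log2 fold change of -2.31 ± 0.96 (95% interval -4.32 to -0.29; limma adjusted p = 0.422) and Reg3a -1.86 ± 0.86 (interval -3.66 to -0.06; limma adjusted p = 0.477). Reg3b was at -1.06 ± 0.71, Reg3g at -1.02 ± 0.53, Reg1 at 0.38 ± 0.25 and Reg3d at -0.06 ± 0.24, with limma adjusted p from 0.534 to 0.966. The groups overlapped for all 6, where 15.2% of genes did not. For Reg2, Reg3a, Reg3b and Reg3g, Snd1-KI animal 3 lay among the S6k2-RK animals or below them.

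**Figure D5:**
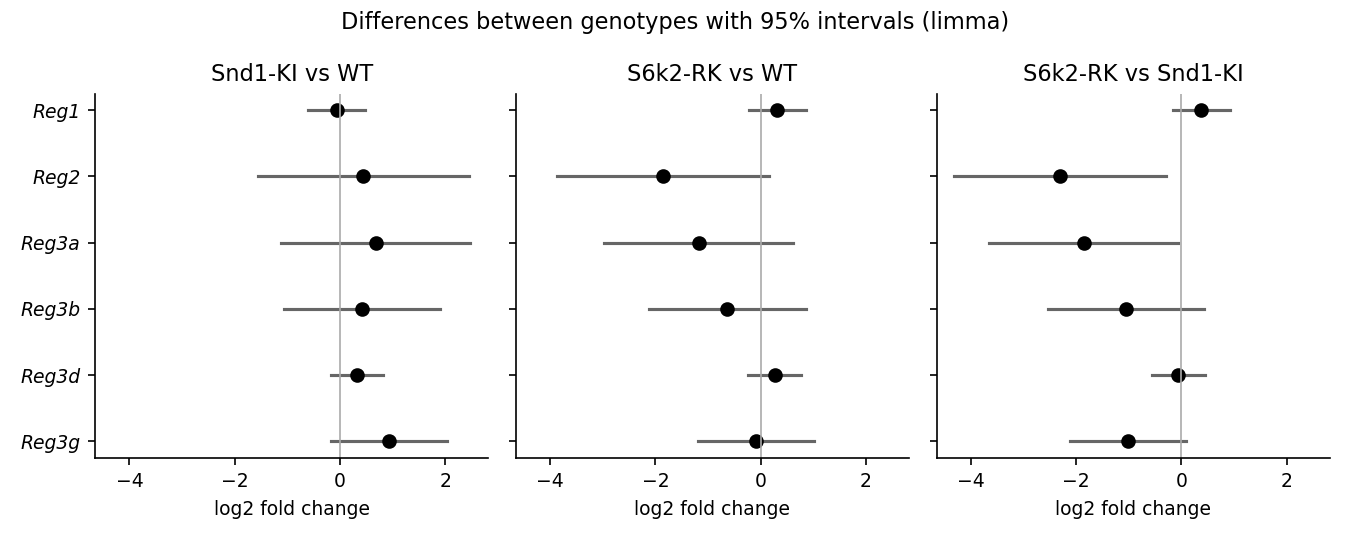
limma log2 fold changes (points) with 95% intervals (lines) for the 6 Reg genes in the 3 comparisons. The intervals of Reg2 are about 4 log2 units wide against about 1 for Reg1 and Reg3d. Of the 18 intervals those of Reg2 and Reg3a between the mutants exclude 0, with no adjusted p below 0.05. Reg1 and Reg3d turn from positive to negative in S6k2-RK against WT when libraries are set to the same total, where the median of all genes tested is -0.51.

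Genes of the pathway that induces Reg genes, with some other cytokines, were examined next. The list held 8 ligands, 9 receptors, 6 transducers and 8 targets, most of them of IL-6, IL-22 and STAT3 signalling. The ligands include Il17a, Il1b and Tnf, and the receptors Il17ra, which are not of the IL-6 or IL-22 families. The receptors also include Extl3, which is no cytokine receptor but has been described as a receptor of Reg proteins. None of the 8 ligands reached the filter, and Il22 and Il17a had 0 reads in all 9 libraries. Of the other 23 genes, limma called 1 higher in Snd1-KI (Extl3) and 2 higher in S6k2-RK (Extl3 and Myc) against WT, and none lower. Of all genes tested, limma called 2.4% higher in Snd1-KI and 5.2% higher in S6k2-RK. Between the mutants it called none of the 23 (3 at an unadjusted p below 0.05, and 0 by edgeR or DESeq2). Against WT, edgeR and DESeq2 made the same 3 calls as limma and also called Il6st lower in S6k2-RK. The median log2 fold change of the 23 was 0.04 in Snd1-KI and -0.07 in S6k2-RK, against 0.00 over all genes tested in both. Extl3, an exostosin-like glycosyltransferase, had 1089 ± 158 normalized counts in WT, 1501 ± 135 in Snd1-KI and 1467 ± 177 in S6k2-RK. Its log2 fold changes were 0.47 ± 0.12 in Snd1-KI (limma adjusted p = 0.0292) and 0.43 ± 0.12 in S6k2-RK (limma adjusted p = 0.0272). The calls were lost without any of 4 libraries, 2 of WT (animals 1 and 2) and 2 of the mutant (animals 2 and 3), with limma adjusted p up to 0.172 and 0.129. At equal totals the S6k2-RK value of Extl3 was -0.09, where the median log2 fold change of all genes tested was -0.51. Myc, a transcription factor of growth, rose in S6k2-RK by 0.44 ± 0.13 (limma adjusted p = 0.0352), from 197 ± 9.39 to 268 ± 27.5 normalized counts. That call was lost without any of the 3 WT animals, Snd1-KI animal 1 or S6k2-RK animals 2 and 3 (limma adjusted p up to 0.132). At equal totals the value of Myc was -0.08, beside the same median of -0.51.

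The central members of this pathway did not pass the limma test. Stat3, the transcription factor, had 346 ± 13.2 normalized counts in WT, 414 ± 36.4 in Snd1-KI and 330 ± 46.9 in S6k2-RK (limma adjusted p = 0.255 and 0.743 against WT). Il6st, the shared receptor chain gp130, had 794 ± 122, 669 ± 42.2 and 622 ± 29.5 (limma adjusted p = 0.255 and 0.0610). Il22ra1, the IL-22 receptor chain, had 177 ± 26.9, 179 ± 39.5 and 187 ± 29.0 (limma adjusted p = 0.996 and 0.814). Socs3, a feedback inhibitor and STAT3 target, had 53.2 ± 8.93, 58.7 ± 12.1 and 74.4 ± 38.0 (limma adjusted p = 0.841 and 0.422). Across animals 1 to 3, Socs3 was 45.4, 51.3 and 62.9 in WT, 72.7, 51.1 and 52.4 in Snd1-KI, and 59.98, 45.6 and 117 in S6k2-RK. Its highest animal was the one with the lowest Reg2 in WT and the one with the highest Reg2 in both Snd1-KI and S6k2-RK.

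Other secreted or stress-responsive genes were set beside the Reg genes. Of 15 acute-phase genes 6 were tested, and limma, edgeR and DESeq2 called none in Snd1-KI (2 at an unadjusted p below 0.05 in limma) and 1 lower in S6k2-RK. This was Hp, the haemoglobin-binding protein haptoglobin, with 234 ± 145, 166 ± 84.8 and 48.9 ± 35.0 normalized counts and a log2 fold change of -2.30 ± 0.46 (limma adjusted p = 0.0030). By animal, Hp was 209, 104 and 390 in WT and 118, 264 and 117 in Snd1-KI. In animal 3, where the Reg genes were lowest in both groups, Hp was thus highest in WT and lowest in Snd1-KI. Of 16 acinar stress genes, limma called 5 higher in Snd1-KI against WT, where 2.4% of all genes tested were, and 6 higher and 1 lower in S6k2-RK, where 5.2% and 6.83% were. Mt2, a metallothionein, rose by 1.14 ± 0.15 in Snd1-KI and 1.58 ± 0.15 in S6k2-RK (limma adjusted p = 0.000375 and 7.6e-06). Nupr1, a stress-induced chromatin protein, rose in S6k2-RK against WT by 1.29 ± 0.14 (limma adjusted p = 2.9e-05) and against Snd1-KI by 0.95 ± 0.14 (limma adjusted p = 0.00482). Mt2 was 3568, 3733 and 2314 normalized counts in WT animals 1 to 3, lowest where the Reg genes were lowest, while Nupr1 was 9196, 9639 and 9641. In Snd1-KI both were lowest in animal 3 too, at 6252 for Mt2 and 9312 for Nupr1, a spread far below that of Reg2.

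Genes most like each Reg gene were sought among the other genes tested, by Pearson's r over the 9 libraries after each group mean had been subtracted. These are descriptions, being among the highest values of all genes tested, over points that share their libraries, and carry no p. For Reg2 they were Rilp (r = 0.988), Upf2 (0.986) and Uqcc2 (0.982), and for Reg3a Rilp (0.970), Pam16 (0.957) and Uqcc2 (0.954). For Reg3b they were Gadd45gip1 (0.977), Uqcc2 (0.970) and Nktr (0.969), and for Reg3g Itpa (0.953) and Exosc3 (0.950). For Reg1 they were Rps18 (0.990), Zfp933 (0.983) and Ftx (0.980), and for Reg3d Ndufa4 (0.982) and Itih4 (0.981). The genes named for Reg2, Reg3a, Reg3b and Reg3g had a smaller within-group SD than the Reg gene itself. That was nearly fixed beforehand, since these Reg genes ranked 3rd, 5th, 10th and 58th of 11953 for this SD. Uqcc2 ranged from 150 to 272 normalized counts over the 9 libraries and Upf2 from 220 to 304, where Reg2 ranged from 556 to 22312. For Reg1 and Reg3d the named genes did not all have the smaller SD. The SD was 0.961 for Ftx and 0.485 for Zfp933 against 0.441 for Reg1. It was 0.742 for Itih4, a secreted inter-alpha-trypsin inhibitor chain, against 0.474 for Reg3d. Ftx and Zfp933 were low, at 4.03 to 28.8 and 12.1 to 31.5 normalized counts, where counting error adds to the SD. Rilp was low too, at 6.42 to 25.0.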

How the data were processed

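Per the labels' protocols, polyA RNA was sequenced as stranded paired-end 150 bp reads (NEBNext Ultra II Directional kit). The submitters' processing notes name DESeq2 and the builds GRCm38 and mm10; the aligner, counter and annotation are not given in the sources used here. The table that the authors deposited lists 46078 genes in 9 libraries, and its values are a signal, namely gene counts over a size factor of each library. There, 100% of the values lay within 1e-06 of a whole multiple of the smallest, so whole reads could be recovered, between 13461427 and 21034501 a library. For S6k2-RK animal 1 the step was 1.00, too near 1 to be told from rounding, so tests on reads were also run without it. Groups were taken from the sample titles, with 3 animals each; that number and this depth limit the precision, and floors cover counting error only.

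The 11953 genes whose mean reached 10 normalized counts were tested with limma 3.58.1 (R 4.3.3) on log2(normalized count + 1), using a trended prior variance and a single fit of all 9 libraries. A fold change on this scale understates that of low genes. P-values were two-sided and adjusted by Benjamini-Hochberg over all genes tested, with a threshold of 0.05. Shares were compared by exact permutation tests. The limma script was tested on simulated data. The Reg genes, the lists and the rule for named genes were chosen with earlier results of these data known. The rule takes the 6 Reg genes and Reg4, called pathway members plus Stat3, Socs3, Il6st, Il22ra1 and Extl3, up to 4 acute-phase and acinar stress genes with the smallest p per comparison, and the 3 genes most like each Reg gene; not all of these stress genes are described, and 2 of the most like genes are not reported here. Promoters are RefSeq's, matched by symbol for all 6 genes, and coordinates and lengths are GENCODE's. Alternatives were other pseudocounts, filters and scalings, edgeR 4.0.16 or DESeq2 1.42.0 on the recovered reads, a replicate block, only the groups compared, and leaving out each library. Within groups, no library was a copy of another (chi-square of 7.63 to 20.4 for each degree of freedom).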

Additional observations from a re-analysis of the deposited data

How the results depend on the processing

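Of 819 alternative values for Reg genes and named pathway or stress genes, 743 kept their direction and side of the threshold. Another 40 turned direction, 28 lost a call and 8 gained one. Several settings leave the fold change itself as it was, so they could alter a call but not a direction. They are the other filters, the replicate block, only the groups compared, and leaving out a library of the group not compared. The number of Reg genes called stayed 0 under every alternative but 2, both in S6k2-RK against WT: 1 with edgeR on recovered reads and 0 to 1 over the leave-one-out fits, the 1 being Reg2 without WT animal 3. The cause was not tested here or below.

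Setting every library to the same total moved the median log2 fold change of all genes to -0.28 in Snd1-KI against WT, -0.51 in S6k2-RK against WT and -0.23 between the mutants, and the genes called to 1626, 5991 and 35. It turned Reg1 to -0.20 and Reg3d to -0.25 in S6k2-RK against WT, as well as Stat3 (-0.028) and Socs3 (-0.15) in Snd1-KI, Socs3 (-0.14), Extl3 (-0.088) and Myc (-0.082) in S6k2-RK, and Il22ra1 in both (-0.28 and -0.44). Size factors from genes outside the enzyme, Reg and mitochondrial lists turned Il22ra1 to -0.11 and -0.18, and in Snd1-KI edgeR (-0.0070), DESeq2 (-0.0016) and edgeR without S6k2-RK animal 1 (-0.0077) did so too. That last fit, added after the data were seen, turned Reg3g to 0.056 in S6k2-RK against WT and called 70 genes between the mutants, where limma called 14; DESeq2 called 53. With a minimum mean of 50 normalized counts, 409 genes were called in Snd1-KI against WT.

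Leaving out each library in turn gave 222 to 824 genes called for Snd1-KI against WT (main value 670), 748 to 1864 for S6k2-RK against WT (1437) and 4 to 85 between the mutants (14). In Snd1-KI against WT the log2 fold change then ranged from -0.36 to 0.13 for Reg1, -0.79 to 2.01 for Reg2, -0.49 to 1.93 for Reg3a, -0.57 to 1.48 for Reg3b and -0.048 to 0.55 for Reg3d. In S6k2-RK against WT it ranged from 0.017 to 0.56 for Reg1, -3.10 to -1.21 for Reg2, -2.35 to -0.53 for Reg3a, -1.63 to -0.10 for Reg3b, -0.10 to 0.49 for Reg3d and -0.61 to 0.24 for Reg3g, and between the mutants from -3.87 to -1.21 for Reg2, -3.11 to -0.82 for Reg3a, -2.12 to -0.20 for Reg3b and -0.28 to 0.13 for Reg3d. Socs3 ranged from -0.027 to 0.26 and -0.011 to 0.66 and Il22ra1 from -0.16 to 0.15 and -0.046 to 0.19, in Snd1-KI and S6k2-RK. The difference in Reg share of counts (percentage points) turned to 0.0295 without Reg1 in Snd1-KI against WT, to 0.0063 outside the enzymes in S6k2-RK against WT and to -0.0870 without Reg1 between the mutants, where leaving out each library gave -0.141 to 0.180.

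The main fit did not pair samples by replicate number. Across the genes tested, deviations of same-numbered libraries from their group means correlated at -0.0781 to 0.0454. These values cannot tell whether same-numbered animals shared a litter or handling. With the replicate block limma called 589, 1304 and 11 genes and 0 Reg genes in each comparison. At an unadjusted p below 0.05 there were then 1, 1 and 4 Reg genes, against 0, 0 and 2 in the main fit. Over all 11953 genes tested the main fit had 2402, 3224 and 1207, and this was not counted for the alternatives. The limma adjusted p of Reg2 in S6k2-RK against WT was 0.0719 with the block, against 0.223. The unadjusted counts of Reg genes were 1, 2 and 4 with edgeR on all recovered reads and 0, 1 and 3 with limma at equal totals.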
